A study of Drosophila melanogaster with 2 samples.

Results

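The neighbouring genes nub and pdm2 lie on chromosome arm 2L of Drosophila melanogaster. Binding of Tailless was examined at every summit within 20 kb of either gene body and in the sequence between them. This locus runs from position 12567625 to 12706306 (dm6), 138.7 kb in all. It held 11 of the 4045 summits that the authors listed past their reproducibility threshold, 72 of 30000 summits of the pooled list, 71 of 30000 of replicate 1 and 73 of 30000 of replicate 3. Over the whole pooled list 13.5% of summits were past that threshold. These were the 4045 strongest of the pooled list by signal value. Within the locus, summits were taken by position and not by signal. The locus itself was chosen with earlier results of these data known.

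The embryos carried a transgene that fuses GFP to the C terminus of Tailless (strain 8T-GFP), were of both sexes and were collected 0 to 4 h after laying. Chromatin was precipitated with an antibody to GFP, and the single group had 2 biological replicates, numbered 1 and 3. The labels name neither the promoter of the fusion nor the state of the endogenous tll gene, and whole embryos pool all cell types, so strong binding in few nuclei and weak binding in many cannot be told apart. Control samples were not analysed here. The signal value of each summit is the authors' own, on a scale that is not stated, so signal values were compared only within a list or between the replicates.

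nub (FBgn0085424, also called pdm1) and pdm2 (FBgn0004394) encode transcription factors with a POU-specific domain and a homeodomain, and they are adjacent paralogs with partly overlapping functions. In the blastoderm both are expressed in broad, gap-like domains, and in the ventral nerve cord they act as temporal factors of neuroblasts, between Krüppel and castor. nub is also needed for wing growth. Tailless is an orphan nuclear receptor that patterns the ends of the embryo, acts largely as a repressor of transcription and is read out here only as occupancy, not as an effect on either gene.

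Both genes are transcribed in the same direction. nub spans 40.5 kb (12587625 to 12628135, plus strand) with 3 start sites, and pdm2 spans 29.1 kb (12657165 to 12686306, plus strand) with 4. The 29.0 kb between them holds only part of Ref2, which encodes an mRNA export adaptor and overlaps nub on the minus strand. Nepl7, which encodes a neprilysin-like protein, lies inside an intron of pdm2. In all, 12 protein-coding genes lie in or reach into the locus.

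The 11 thresholded summits are numbered 1 to 11 from left to right. Summits 1 and 2 lay in an intron of nub, summits 3 to 8 in introns of pdm2 and summits 9 to 11 beyond pdm2 at the start sites of other genes. None of the 8 in the gene bodies fell in an exon of nub or pdm2. No thresholded summit lay in the 20 kb before nub or in the sequence between the pair. At the average of the 6 chromosome arms, 0.302 per 10 kb, segments of this length hold few.

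**Figure D1:**
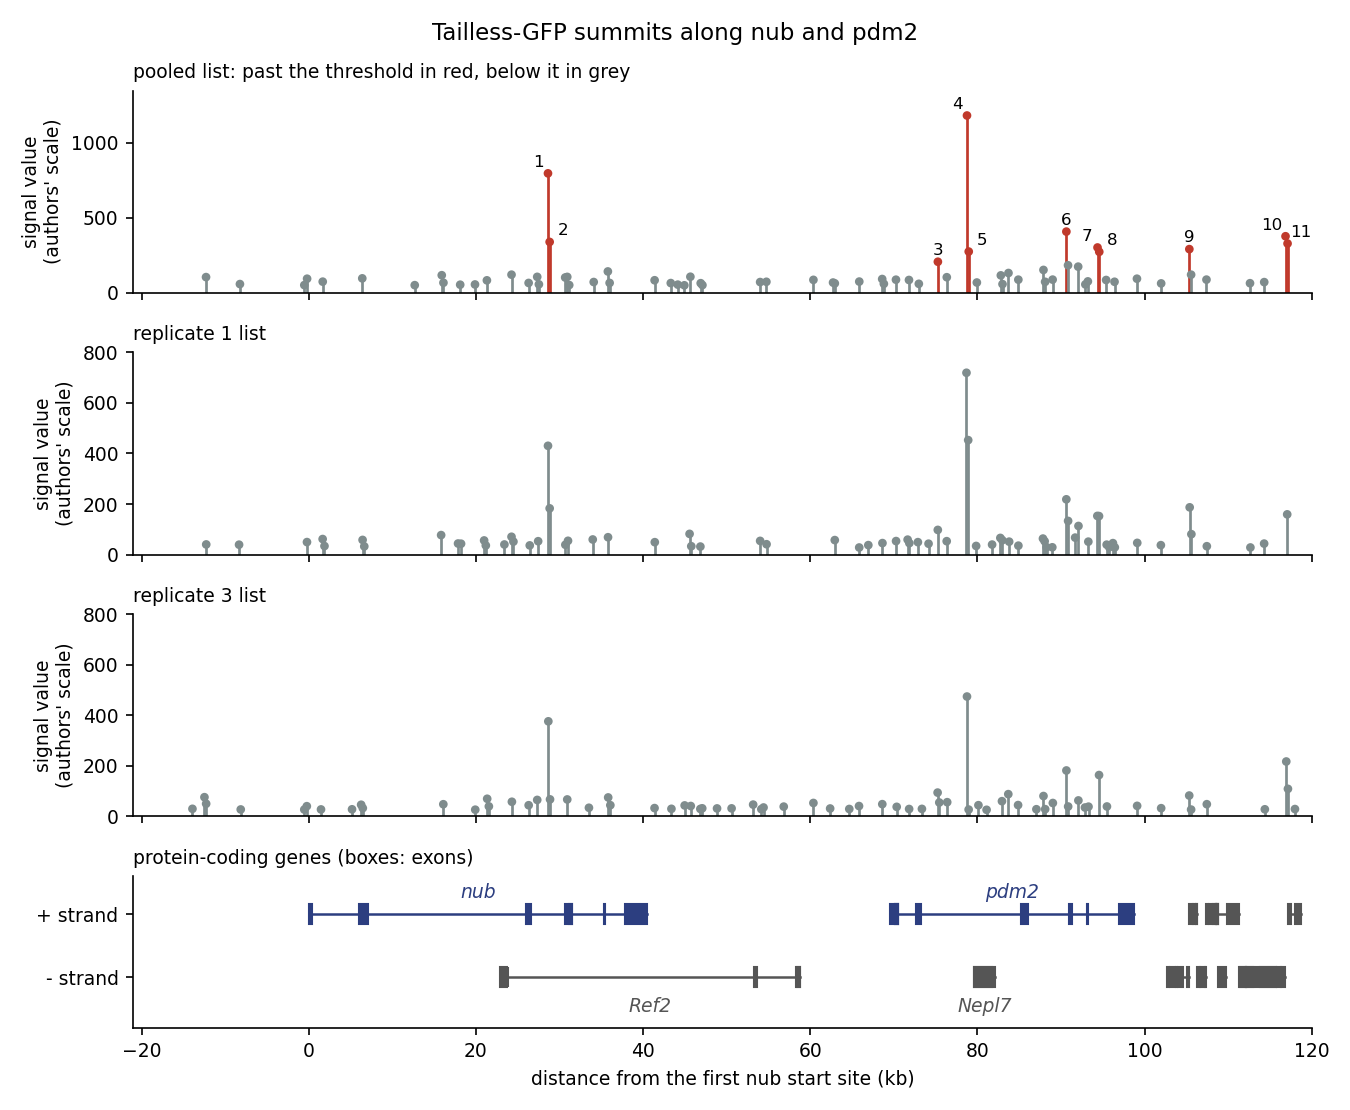
Signal value (authors' scale) of every summit of the pooled, replicate 1 and replicate 3 lists against the distance from the first nub start site in kb, with gene models below. The 11 pooled summits past the threshold are red and numbered, and the strongest are summit 4 in pdm2 (1183) and summit 1 in nub (797).

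The sequences below are the RefSeq copy of the Release 6 genome (dm6) within 50 bp of 7 of the summits in the gene bodies, chosen because summit 1 and summit 4 are the strongest of their gene, summits 2, 5 and 7 are paired with summits 1, 4 and 8, summit 6 lies near a start site, and summits 5, 6 and 8 hold the word AAGTCA. The window of a weaker pooled summit before the first nub start site follows, because it holds the word as well. AAGTCA and its longer form AAAGTCA, read on either strand, are the recognition words of Tailless and stand in capitals. All are given on the plus strand of dm6, 5′ to 3′.
nub intron, summit 1 (chr2L:12616201-12616301): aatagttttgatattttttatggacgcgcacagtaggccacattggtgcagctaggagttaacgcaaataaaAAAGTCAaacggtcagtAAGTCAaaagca
nub intron, summit 2 (chr2L:12616402-12616502): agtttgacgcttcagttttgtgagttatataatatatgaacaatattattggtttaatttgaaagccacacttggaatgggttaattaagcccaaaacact
pdm2 intron, summit 4 (chr2L:12666329-12666429): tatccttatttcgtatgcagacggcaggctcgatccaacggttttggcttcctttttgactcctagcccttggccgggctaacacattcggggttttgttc
pdm2 intron, summit 5 (chr2L:12666538-12666638): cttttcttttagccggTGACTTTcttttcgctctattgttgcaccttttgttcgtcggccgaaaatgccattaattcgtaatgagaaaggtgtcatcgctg
pdm2 intron beside the RA start site, summit 6 (chr2L:12678219-12678319): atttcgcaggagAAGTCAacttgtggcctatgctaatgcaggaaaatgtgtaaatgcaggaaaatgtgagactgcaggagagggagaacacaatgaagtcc
pdm2 intron, summit 7 (chr2L:12681945-12682045): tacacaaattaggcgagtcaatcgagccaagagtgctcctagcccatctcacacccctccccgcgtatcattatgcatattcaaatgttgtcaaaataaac
pdm2 intron, summit 8 (chr2L:12682153-12682253): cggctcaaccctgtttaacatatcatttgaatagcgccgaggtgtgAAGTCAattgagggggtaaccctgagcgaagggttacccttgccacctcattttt
before the first nub start site (chr2L:12587383-12587483): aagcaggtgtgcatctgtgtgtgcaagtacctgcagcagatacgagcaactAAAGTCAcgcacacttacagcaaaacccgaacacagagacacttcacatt

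In nub the signal was concentrated in 1 interval, in an intron upstream of the inner start sites. Summit 1, at position 12616251, had a pooled signal value of 797 and rank 214 of 30000. It lay 2094 bp upstream of the start site of transcript RD, in introns of both nub and Ref2. Replicate 1 gave it 430.4 and replicate 3 376.5, ranks 224 and 232, so both libraries placed it almost equally high. On the log2 scale it averaged 8.65 ± 0.14 (SD, n = 2). Its window holds 2 copies of AAGTCA, 26 and 42 bp to the right of the summit, and the nearer one is the longer form.

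Summit 2, in the same interval and 201 bp to the right, had a pooled signal value of 339. It had 183 in replicate 1 and 67.6 in replicate 3, and averaged 6.80 ± 1.02 (log2, SD, n = 2). Unlike summit 1 it had no AAGTCA within 50 bp, and the replicates differed 2.71-fold. The nearest copy of the word lay 160 bp away, beside summit 1.

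The strongest summit of the whole locus lay in pdm2. Summit 4, at position 12666379, had a pooled signal value of 1183, rank 78 of 30000. It had 719 in replicate 1 and 475 in replicate 3 (ranks 54 and 126), and averaged 9.19 ± 0.42 (log2, SD, n = 2). Both replicates held it among their highest entries. It lay in an intron, 8555 bp from the nearest pdm2 start site and 2975 bp from a start site of Nepl7. A rule that assigns a summit to the nearest start site therefore gives summits 4 and 5 to Nepl7 and not to the gene whose intron holds them.

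Summit 4 had no AAGTCA within 50 bp, and the nearest copy lay 178 bp away. That copy, in the longer form, was 32 bp from summit 5, which followed summit 4 at 209 bp in the same interval. Another copy of the longer form lay 56 bp to the right of summit 5, outside the 50 bp searched. Summit 5 had a pooled signal value of 274, with 453 in replicate 1 and 27.3 in replicate 3. The 16.6-fold difference between replicates was the largest at any of the 3960 thresholded summits with a summit of both replicates within 150 bp. The average of 6.80 ± 2.87 (log2, SD, n = 2) is therefore no stable level for summit 5.

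Positions differed there as well as heights. In replicate 1 the pair lay at 12666318 and 12666523, to the left of summits 4 and 5. Its second summit was 34 bp from the nearest copy of the word. In replicate 3 the pair lay at 12666379 and 12666578, and its second summit was 22 bp from the nearest copy. The second entry of replicate 3 ranked 28247 of 30000, close to the end of that list, while that of replicate 1 ranked 195.

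**Figure D2:**
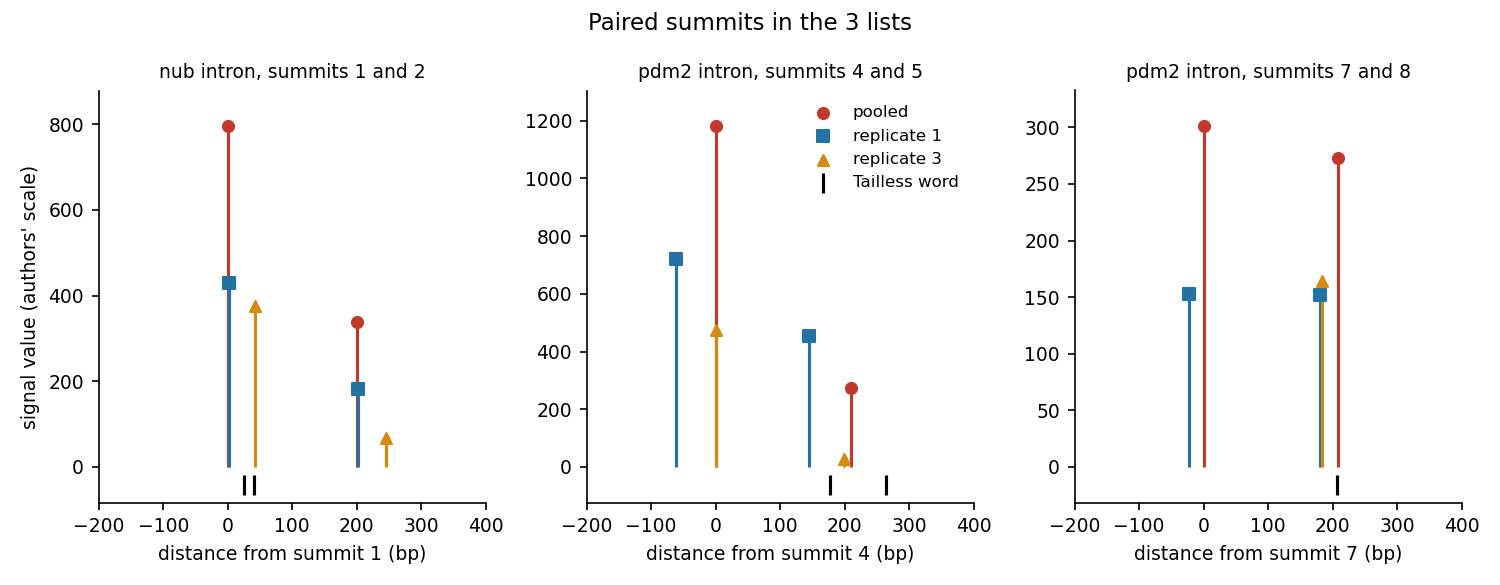
Signal value (authors' scale) of the pooled (circles), replicate 1 (squares) and replicate 3 (triangles) summits around 3 pairs of thresholded summits, against the distance in bp from the left summit of the pair. Black ticks mark AAGTCA. Summits 1 and 4 were called in both replicates, summit 5 had 453 in replicate 1 and 27.3 in replicate 3, and near summit 7 only replicate 1 had an entry within 150 bp.

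The other pdm2 summits were weaker than summit 4. Summit 6, at position 12678269, lay 335 bp upstream of the inner start site, that of transcript RA, and had a pooled signal value of 408. It had 219 in replicate 1 and 182 in replicate 3, an average of 7.64 ± 0.19 (log2, SD, n = 2). It was the only thresholded summit within 500 bp of a start site of nub or pdm2. One copy of AAGTCA lay 36 bp to its left.

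Summits 7 and 8, at positions 12681995 and 12682203, lay 3391 and 3599 bp downstream of the RA start site. Their pooled signal values were 302 and 273. Summit 8 had 152 in replicate 1 and 164 in replicate 3 and averaged 7.30 ± 0.08 (log2, SD, n = 2). It was the only one of the 9 summits measured in both replicates that was higher in replicate 3. AAGTCA lay on summit 8, with its centre 2 bp away, and the word AAGGGT of Krüppel, a gap protein, was in the same window. Summit 7 had 153 in replicate 1, while the nearest entry of replicate 3 was 183 bp away, so no average is given for it. Summit 3, at position 12662896, was the weakest of the 11, with a pooled signal value of 206. It had 97.5 in replicate 1 and 94.5 in replicate 3, the smallest difference between replicates among the 9 thresholded summits matched in both (6.58 ± 0.03, log2, SD, n = 2).

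Summits 9, 10 and 11 lay at start sites of genes other than the pair. Summit 9 (pooled 291) was 13 bp from the start site of CG6153, beside CCT4, which encodes a chaperonin subunit. Summit 10 (377) was 37 bp from that of CG5776 and summit 11 (328) was 5 bp from that of spict, which encodes Spichthyin, a regulator of BMP signalling. Summit 9 had 187 in replicate 1 and 82.8 in replicate 3 (6.96 ± 0.83, log2, SD, n = 2), and summit 11 had 159 and 109 (7.04 ± 0.38). For summit 10 replicate 3 had 217.5 and the nearest entry of replicate 1 was 200 bp away. None of these 3 had AAGTCA within 50 bp, against 4 of the 8 in the gene bodies and 15.0% of all thresholded summits. With 3 summits this cannot show a difference from either, and a copy lay 100 bp from summit 10.

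The threshold separated neighbours of similar signal. Just inside it was summit 3 with 206, and just outside were pooled summits at 12678468 with 183 and at 12679681 with 174, both in introns of pdm2. The first of these stood 199 bp from summit 6. It had 133 in replicate 1 and 39.4 in replicate 3 (6.18 ± 1.24, log2, SD, n = 2), and the second had 113 and 63.4 (6.40 ± 0.59).

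The 61 pooled summits that missed the threshold spread along all of the locus. In the nub gene body the strongest of them had 142, at 12623416, where replicate 1 gave 68.6 and replicate 3 75.3 (6.17 ± 0.10, log2, SD, n = 2). Before nub the strongest had 104, at 12575343, with 40.0 in replicate 1 and 50.3 in replicate 3 (5.49 ± 0.23). Between the genes the strongest had 106, at 12633287 in an intron of Ref2, with 81.8 in replicate 1 and 41.4 in replicate 3 (5.86 ± 0.70). All 3 lay below the lowest signal value of the whole thresholded list, 194.6. This was fixed in advance, because that list is the 4045 strongest summits of the pooled list.

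Start sites of the pair had weaker pooled summits, and the nearest thresholded summit to any of them was summit 6, at 335 bp. A summit of 93.1 lay 192 bp before the first nub start site, and summits of 101 and 50.8 lay 35 and 9 bp from those of RD and RE. The outer start sites of pdm2 shared a summit of 86.5 at position 12657883. The strongest beside a start site was that of 183 near RA, 136 bp away. AAGTCA lay within 50 bp of the summit before the first nub start site and of the one at 12657883, in the 5′ UTR of pdm2.

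Density of summits was uneven between the genes. The pdm2 gene body held 6 thresholded summits, 2.06 per 10 kb, and the nub gene body held 2, or 0.494 per 10 kb. The pooled list had 24 summits in pdm2 and 20 in nub, 8.24 and 4.94 per 10 kb. Replicate 1 had 30 and 20 and replicate 3 had 24 and 17, so each library had more in pdm2, the shorter gene. The 6 chromosome arms averaged 0.302 thresholded and 2.24 pooled summits per 10 kb. Between the genes stood 15 pooled summits, 5.17 per 10 kb, and before nub 4, or 2.0 per 10 kb.

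The whole locus had 0.793 thresholded and 5.19 pooled summits per 10 kb. Of its 72 pooled summits 11 were past the threshold, 15.3% (exact 95% interval 7.88 to 25.7%), close to the 13.5% of the whole pooled list. The interval covers counting error only, and neighbouring summits are not independent. The median pooled signal value of the 72 was 84.6, against 81.9 over all 30000. The locus held more summits per length than the arms, 2.63-fold for thresholded and 2.32-fold for pooled summits, while the share past the threshold was near that of the whole list.

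**Figure D3:**
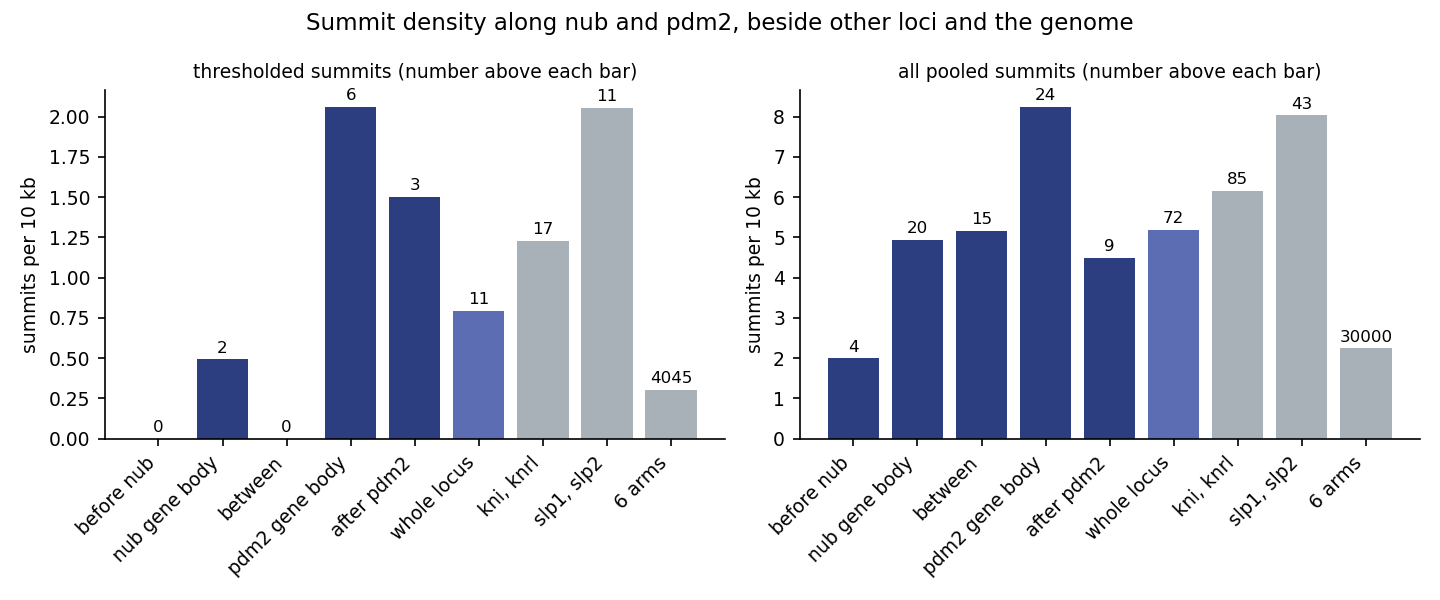
Summits per 10 kb of sequence in the thresholded (left) and pooled (right) lists, for 5 segments of the nub and pdm2 locus, the whole locus, the loci of kni with knrl and of slp1 with slp2, and all 6 arms. Numbers above the bars are summit counts, and the pdm2 gene body has the most of the 5 segments, with 6 thresholded and 24 pooled summits.

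Loci of other paralog pairs of early patterning genes were built by the same rule. That of nub and pdm2 had 11 thresholded summits in 138.7 kb, that of kni and knrl, which encode nuclear receptors, 17 in 138.2 kb, and that of slp1 and slp2, forkhead genes, 11 in 53.5 kb. Shares of pooled summits past the threshold were 15.3%, 20% and 25.6%, and the strongest summits ranked 78, 61 and 186. The exact intervals of the shares overlapped, from 7.88 to 25.7%, 12.1 to 30.1% and 13.5 to 41.2%. AAGTCA lay at 4 of 11, 2 of 17 and 1 of 11 thresholded summits. These values stand side by side without a test of the difference.

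Recurrence between replicates was near the level of the whole lists. Of 71 summits of replicate 1, 42 had a summit of replicate 3 within 150 bp, 59.2% (exact 95% interval 46.8 to 70.7%), against 57.1% over the whole list. Of 73 summits of replicate 3, 42 had one of replicate 1, 57.5% (45.4 to 69.0%), against 56.4%. In the pdm2 gene body 18 of 30 summits of replicate 1 and 18 of 24 of replicate 3 recurred, and in the nub gene body 8 of 20 and 8 of 17. Recurring summits of replicate 1 had a median signal value of 53.2 and the others 42.9, and those of replicate 3 had 48.6 and 32.2. Both libraries were called against the same control alignment. Of the 72 pooled summits, 44 were matched in both replicates, 24 in 1 and 4 in neither.

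Of the 9 thresholded summits matched in both replicates, 8 were higher in replicate 1. Over all 3960 such summits the median log2 ratio of replicate 1 to replicate 3 was 0.15, so part of this direction is shared by the whole list. Among the 44 pooled summits of the locus matched in both, 27 were higher in replicate 1 and 17 in replicate 3. Summits 2, 5 and 9 had log2 ratios of 1.44, 4.05 and 1.17, beyond the 95th percentile of 1.00 of all thresholded summits. Summits 2 and 5 were each the weaker summit of a shared interval, a class whose 95th percentile was 2.09, so summit 2 lay inside the range of its class and summit 5 beyond it. Across the whole list the 302 such summits with a ratio had a median absolute log2 ratio of 0.51, against 0.21 for the 290 strongest of a shared interval and 0.29 for the 3368 alone in theirs. No neighbouring summits in any list were closer than 199 bp.

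**Figure D4:**
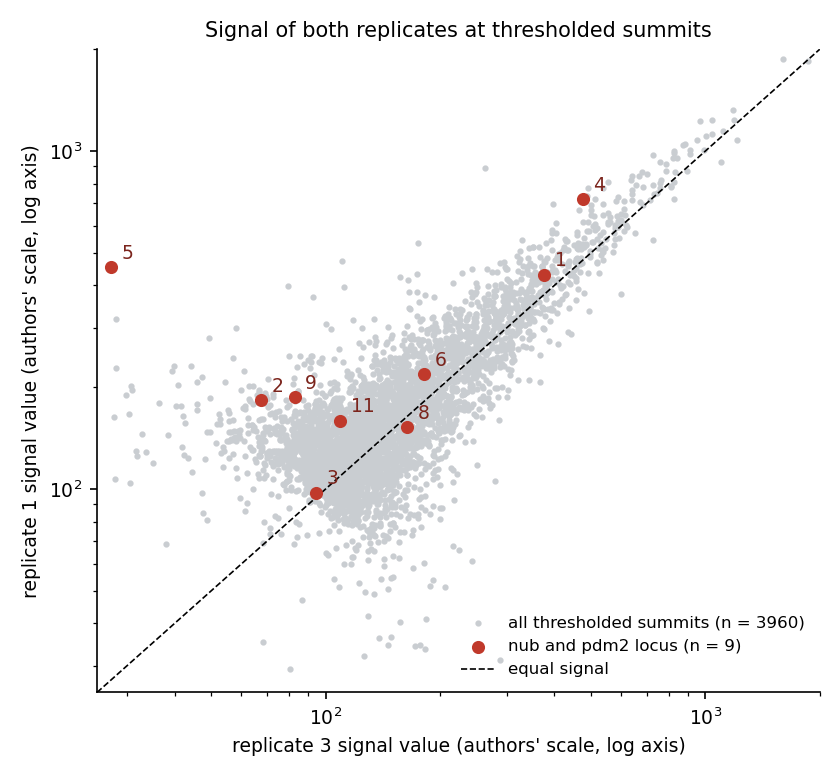
Signal value in replicate 1 against replicate 3 at thresholded summits, both axes logarithmic, with 9 locus summits in red, numbered as in the text, and all 3960 in grey. Dashes mark equal signal, and summit 5 lies farthest from the line, at 453 in replicate 1 and 27.3 in replicate 3.

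Without replicate 1, the 4045 strongest summits of replicate 3 included 6 in the locus, beside summits 1, 4, 6, 8, 10 and 11. Without replicate 3, the strongest of replicate 1 included 11, with 9 of the 11 thresholded summits matched. The leading summits of both genes, 1 and 4, were present in either case. Summits 2, 5, 7 and 9 were matched among the strongest of replicate 1 alone and summit 10 among those of replicate 3 alone. Summit 3 was matched in neither selection.

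The Tailless word was counted at the summits of the locus. AAGTCA lay within 50 bp of summits 1, 5, 6 and 8, which is 4 of 11 (36.4%), against 15.0% of all thresholded summits. In windows centred 500 bp to the left and right of the 11 it occurred 0 times and 1 time, against 4.80% on either side over the whole list. Among the 72 pooled summits 10 had it (13.9%), against 9.89% of all pooled summits, and the flanks of those 72 had it at 6 and 8 (8.33% and 11.1%), against 4.43% and 4.55% over the whole pooled list. The share at the 72 summits was thus near that of their own flanks. With so few summits these shares are a description. The locus held 101 copies of AAGTCA in all, 7.28 per 10 kb, of which 5 lay within 50 bp of a thresholded summit and 11 within 50 bp of a pooled one. Windows of 101 bp around 72 summits cover little of the 138.7 kb. Most copies therefore had to lie outside them wherever the summits stood. The same counts over the whole arms are not given here.

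Each word of another regulator was at 0 or 1 of the 11 summits. CAGGTA of Zelda, the pioneer factor of the early embryo, TAATCC of Bicoid, GAGAGA of GAGA factor and the octamer ATGCAAAT, bound by POU proteins, were at 0 of 11. Over all thresholded summits they were at 7.24%, 4.62%, 6.97% and 1.48%. TTTATG of Caudal was at summit 1 only and AAGGGT of Krüppel at summit 8 only, against 12.3% and 3.76% of all. Among the 72 pooled summits AAGGGT was at 7 (9.72%), against 3.5% of all pooled summits, and CAGGTA at 5 (6.94%), against 4.01%. TTTATG was at 6 (8.33%), against 11.1% of all. TAATCC and GAGAGA were at 3 each (4.17%), against 3.45% and 5.39%, and the octamer was at 0, against 1.59%. In the left and right flanks of the 72, AAGGGT was at 3 and 2, CAGGTA at 1 and 2 and TTTATG at 5 and 10. There TAATCC was at 5 and 3, GAGAGA at 3 and 1 and the octamer at 0 and 1. The flanks of the 11 had each of these words at 0 to 2 on a side. With so few summits these counts are a description. Both strands were searched, and a word that is missing from a window says nothing about the factor.

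By the nearest start site within 20 kb, nub was assigned 2 thresholded summits and pdm2 4. Such a summit was found for 15.6% of 13945 protein-coding genes. Ranked by its strongest assigned summit, nub (797) was at place 172 of 2176 such genes and pdm2 (408) at place 666. The genes closest to nub by this value were CG44838 and Rac2, which encodes a GTPase, with 796.5 and 796.2. Those closest to pdm2 were Socs36E, which encodes an inhibitor of JAK/STAT signalling, and CG2006, both with 408. In pdm2 this place does not count summit 4, whose 1183 went to Nepl7.

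Among the 5 POU genes of the list used here, nub, pdm2, pdm3 and vvl were assigned thresholded summits and acj6 was not. The strongest had 797, 408, 278 and 202. All 6 temporal factors of neuroblasts had summits, with 976 at Kr, 797 at nub, 755 at hb, 558 at grh, which encodes Grainyhead, 440 at cas and 408 at pdm2. The summit of cas lay more than 2 kb from its gene body. All 6 gap genes were assigned thresholded summits, with 10 at tll, 8 at kni, 7 at Kr, 6 at hb, 5 at hkb and 3 at gt. Of all protein-coding genes 15.6% were assigned such a summit. The lists share nub, pdm2, hb and Kr and were chosen with earlier results known, so their counts are a description. The tagged protein is encoded by tll, and copies of the tll region in the transgene were not counted here.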

How the data were processed

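ChIP-seq with an antibody to GFP was made in 1 group of 2 replicates. Peak lists on dm6 were deposited for replicate 1, replicate 3, both pooled, and the summits past a threshold on the irreproducible discovery rate (a measure of rank agreement between replicates). Per the text deposited with them, replicate and pooled lists came from alignments with 1 shared control alignment, and the thresholded list from the other 3. Neither aligner nor caller nor threshold is named by the sources used here. Ranks follow the signal value that the authors deposited, whose scale is not stated. The deposited −log10 q-value reaches a ceiling (4.26 in the pooled list) and was not used. The deposited summit offset, in bp from the interval start and with no other unit, gave each summit position, printed counting from 1. The number of reads is unknown. Replicate and pooled lists all end at 30000 entries.

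Python 3.11.15, numpy 2.4.6, pandas 2.3.3, scipy 1.17.1 and matplotlib 3.10.9 were used, with Ensembl release 115 genes and the Release 6 sequence, the assembly of dm6. A replicate summit within 150 bp gave a replicate's value, and log2 means ± SD cover 2 replicates. Entries sharing an interval were kept apart. Shares have exact binomial (Clopper-Pearson) intervals. The functions were tested on simulated data. No test over samples was possible with 1 group. Genes named were the pair, genes at the summits or between the pair, list members and the 2 nearest in signal to each. Members, lists and words were chosen with earlier results of these data known.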

Additional observations from a re-analysis of the deposited data

How the results depend on the processing

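Of 60 alternatives, 49 left the value within 1.5 times, 1 SD or its interval, and 11 moved it. With 2 replicates, leaving 1 out shifts a log2 mean by less than its SD. Those alternatives at the summits therefore could not count as moved, and their being unmoved is no sign of stability. Summit 5 counted as unmoved at 4.77 without replicate 1 and 8.82 without replicate 3, against 6.80 ± 2.87 (log2, SD, n = 2). Leaving out each replicate gave 6 to 11 thresholded summits in the locus, 1 to 2 assigned to nub and 2 to 5 assigned to pdm2, the low values without replicate 1. With only the strongest summit of each interval nub was assigned 1. The stronger 2022 thresholded summits assigned 2 to pdm2, and 2 of those in the locus had AAGTCA within 50 bp. A window of 25 bp left 1 summit with AAGTCA. With 50 bp in place of 150 bp, 25 summits of replicate 1 and 25 of replicate 3 recurred. The strongest replicate entry overlapping the interval gave a log2 mean of 8.65 at summit 2, the value of summit 1, and 7.54 at summit 11. The cause of the other moves was not tested. Depth is unknown, and list length limits what lies below 47.0 in the pooled list. No paired analysis was possible because there was 1 group.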
